A study of Mus musculus with 6 samples.

Results

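H3K27ac, the acetylated form of lysine 27 in histone H3 that marks active promoters and enhancers, was examined at 10 genes of antigen presentation in the mouse retina. The genes were B2m, H2-K1, H2-D1, Tapbp, Tap1, Tap2, Psmb8, Psmb9, Nlrc5 and Cd74, taken by name, for their role and not by a cutoff on any value, out of 21911 protein-coding genes, with earlier results of these data known. The data were 6 lists of H3K27ac peaks from ChIP-seq of bulk retina of wild-type (WT) mice, which were 3 months old at the first pressure elevation. In the 4xIOP group (3 lists), the intraocular pressure of one eye was raised to a constant 30 mmHg for 1 h, every other week, 4 times in all. In the control group (3 lists), the untreated contralateral eye was used, and all retinas were collected on day 2 after the 4th elevation. The general treatment notes of the series also describe injection of dasatinib or vehicle, and the entries of these 6 samples name neither. Of the 135652 peaks in all lists, 72 lay within 2.5 kb of a start site of one of the 10 genes, in its body or within 5 kb of the body.

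Class I molecules of the major histocompatibility complex (MHC) show peptides from inside the cell to T cells. Peptides are cut by the proteasome, whose interferon-inducible form carries the subunits Psmb8 and Psmb9. They are then pumped into the endoplasmic reticulum by the transporter Tap1/Tap2 and loaded, with the help of tapasin (Tapbp), onto a heavy chain (H2-K1 or H2-D1) paired with beta-2-microglobulin (B2m). Nlrc5 is the transactivator of class I genes, and Cd74 is the invariant chain of class II molecules, which are made mainly by professional antigen-presenting cells. Neural retina is known for low basal class I expression, and microglia and other cells raise these genes in response to interferon.

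Each list came from a single sample, so that the lists are the replicates. The labels do not say which lists came from the same animal, and the spread between lists may be partly technical. The lists held from 16195 to 36509 peaks, with a mean background between 87.4 and 173 fragments per 10000 bp. For 4 of the 6 samples, the deposited list bears the name of the opposite group to its label. Control lists 1 and 2 and 4xIOP list 3 bear the name of the pressure group, and control list 3 and 4xIOP lists 1 and 2 that of the control group. The samples were not regrouped, and all directions between groups hold for the groups as labelled. In bulk tissue, a lower share of acetylated cells and less acetylation per cell cannot be told apart.

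The strength of a peak is given as the number of fragments piled up at its summit, and as summit enrichment, which is that number divided by the mean background of the same list. Summit enrichment is a level at one position and needs no correction for gene length. Promoters extended 2.5 kb to each side of a start site and were called marked if at least 1 bp was under a peak. Where a gene had no peak, its signal was below the threshold of that list, which does not mean that the mark was absent. At mean background, the weakest peaks called had 9 fragments in control lists 1 and 3 and in 4xIOP list 2, 10 in 4xIOP lists 1 and 3, and 12 in control list 2.

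The promoters of H2-D1, Tapbp and Tap2 were marked in all 6 lists. Those of B2m and H2-K1 were marked in 5 lists, those of Tap1 and Psmb9 in 4, that of Nlrc5 in 3 and that of Psmb8 in 2, and Cd74 had no peak at all. The number of marked promoters was 9, 8 and 8 of 10 in control lists 1 to 3 and 3, 5 and 8 in 4xIOP lists 1 to 3, with means of 8.33 ± 0.577 and 5.33 ± 2.52 (SD, n = 3). 4xIOP list 3 had as many as control lists 2 and 3, so that the groups overlapped. In each list, the share of all protein-coding genes marked was 48.6%, 46.2% and 56.9% in control and 47.4%, 45.6% and 44.6% in 4xIOP. The difference of means among the 10 was -3.00 promoters, and -1.83 without 4xIOP list 1. Lowering the count of each list by its genome-wide share, taken as genes of 10, left the difference at -2.53. By the names on the lists its direction would be the reverse, since the lists carrying the pressure name had 9, 8 and 8 marked promoters, and those carrying the control name 8, 3 and 5. Of the 10 promoters, 6 were marked in more control than 4xIOP lists, and 0 in more 4xIOP lists. Tap1 and Psmb9 share a promoter, and with it counted once 5 of 9 were marked in more control lists, with 8, 7 and 7 marked in control and 3, 5 and 7 in 4xIOP, a difference of -2.33. Over all protein-coding genes these shares were 13.3% and 2.1%, and 39.5% were marked in all 6 lists, against 3 of the 10 genes.

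**Figure D1:**
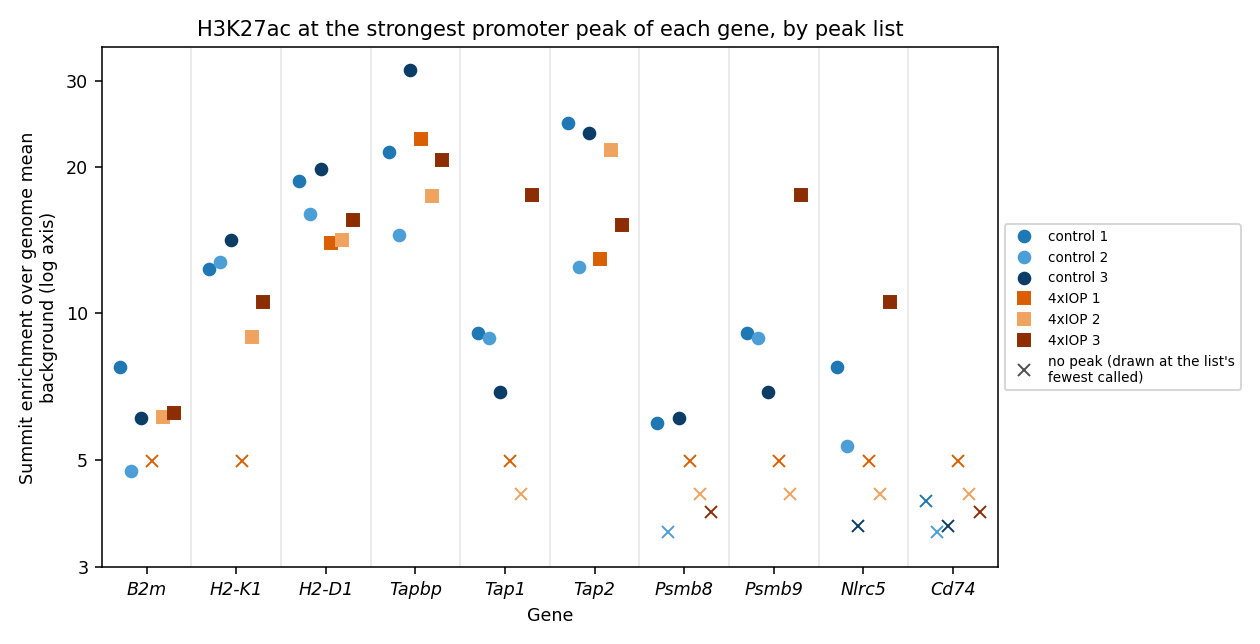
Summit enrichment (fragments at the summit divided by the mean background of the list, log axis) of the strongest promoter peak of each of the 10 genes, with 1 point per list (circles, control; squares, 4xIOP). Crosses are lists without a promoter peak, drawn at the enrichment of the weakest peak called at mean background, 3.55 to 4.97. Tapbp, Tap2 and H2-D1 have a point in every list, the other genes lack one in at least 4xIOP list 1, and Cd74 has crosses only.

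The chains of the class I molecule were considered first. B2m (ENSMUSG00000060802.8, chr2:122147686-122153083, plus strand) had a single narrow peak in an intron, with its summit 176 to 347 bp downstream of the start. Its summit held 17, 16 and 15 fragments in control lists 1 to 3 and 13 and 16 in 4xIOP lists 2 and 3, and there was no peak in 4xIOP list 1. Summit enrichment was 7.76, 4.73 and 6.08 in the controls and 6.13 and 6.24 in the 4xIOP lists with a peak, so that the levels of the groups overlapped. These were among the weakest promoter peaks of the 10 genes, at 4 to 8 fragments above the fewest called at mean background. The length of the B2m promoter under peaks was 337 ± 107 bp in control and 235 ± 212 bp in 4xIOP (SD, n = 3, exact permutation p = 0.7). Leaving out 4xIOP list 1, the difference went from -102 to 15.0 bp. With a −log10 q of at least 5 required, B2m was marked in control lists 1 and 3 only, and H2-K1, described next, in the 3 control lists and 4xIOP list 3.

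H2-K1 (ENSMUSG00000061232.16, chr17:33996017-34000347, minus strand) is one of the classical class I heavy chain genes. Its intronic peak, 218 to 604 bp downstream of the start, had 27, 43 and 35 fragments in control lists 1 to 3 and 19 and 27 in 4xIOP lists 2 and 3, with none in 4xIOP list 1. Summit enrichment was 12.3, 12.7 and 14.2 in control and 8.95 and 10.5 in 4xIOP. The 3 control lists were above the 2 4xIOP lists that had a peak, and 1 list has no level. Of the 127 genes marked in just these 5 lists, 3.94% had the same order. The order did not hold with fragments divided by the median summit of regions shared by all lists, which gave 0.75, 1.13 and 0.50 in control and 0.58 and 0.93 in 4xIOP lists 2 and 3. In 4xIOP list 3 a second peak with 24 fragments lay 462 bp upstream of the start. The promoter length under peaks was 651 ± 200 bp in control and 367 ± 358 bp in 4xIOP (SD, n = 3, exact permutation p = 0.4). Leaving out 4xIOP list 1, that difference went from -283 to -99.7 bp, and it was -458 bp without 4xIOP list 3.

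H2-D1 (ENSMUSG00000073411.11, chr17:35262730-35267499, plus strand), the other heavy chain gene, had the most peaks of the 3. A peak with its summit 546 to 647 bp downstream of the GENCODE start was found in all 6 lists, and had 41, 54 and 49 fragments in control lists 1 to 3 and 28, 30 and 40 in 4xIOP lists 1 to 3. Summit enrichment was 18.7, 16.0 and 19.8 in control and 13.9, 14.1 and 15.6 in 4xIOP. Every control list was above every 4xIOP list, by a narrow margin between control list 2 and 4xIOP list 3. The mean enrichment was 18.2 ± 1.99 and 14.5 ± 0.905 (SD, n = 3), a log2 difference of -0.32 (exact permutation p = 0.1, two-sided, the smallest that 3 lists against 3 can give). The same log2 difference had a median of -0.27 over the 8654 genes marked in all 6 lists, which rested on control list 3 and was 0.08 without it, where that of H2-D1 was -0.25. Of those genes, 1.01% had every control list above every 4xIOP list, and 0.0347% the reverse. Scaled to the median summit of regions shared by all lists, the difference at H2-D1 was -0.06 (exact permutation p = 0.9).

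A weaker peak at the GENCODE start of H2-D1, with its summit within 39 bp of it and 332 to 403 bp upstream of the RefSeq start, was called in the 3 control lists with 25, 27 and 24 fragments, and in no 4xIOP list. In the controls the local background there was 8.87, 10.2 and 8.19 fragments, against genome means of 2.19, 3.38 and 2.47, and it was at −log10 q of 3.03, 2.84 and 3.41. With a −log10 q of at least 5 required, it was no longer called in any list. Another peak, 4605 to 4761 bp upstream of the gene, was called in all 6 lists with 28, 27 and 39 fragments in control and 21, 19 and 32 in 4xIOP. The total promoter length under peaks was 759 ± 93.7 bp in control and 508 ± 199 bp in 4xIOP (SD, n = 3, exact permutation p = 0.3). Between groups this came to -251 bp, but only to -29.7 bp when a −log10 q of at least 5 was required or when lists were cut to equal numbers of top peaks (exact permutation p = 0.8 in both cases).

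**Figure D2:**
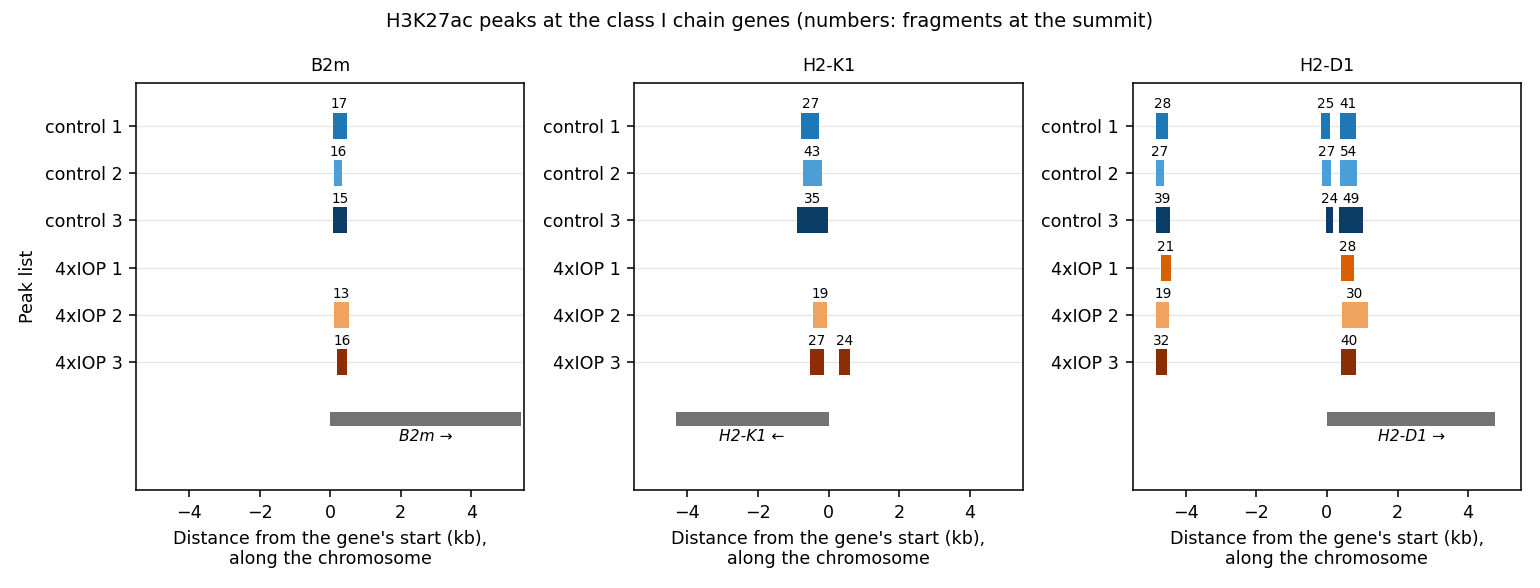
Peaks at B2m, H2-K1 and H2-D1 in each list, as bars at their distance in kb from the start of the gene along the chromosome, with the number of fragments at the summit above each bar and the gene body in grey. B2m and H2-K1 have no bar in 4xIOP list 1, and the bar at the GENCODE start of H2-D1 is present in the 3 control lists alone, with 24 to 27 fragments.

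The upstream sequences of these 3 genes are shown because class I genes and B2m are known to share regulatory elements near their starts, and the strongest peaks lay downstream of the starts. RefSeq promoters (GRCm38.p6, 250 bases before to 50 bases after a start) were found for 7 of the 10 genes, namely B2m, H2-K1, H2-D1, Tap1, Tapbp, Psmb8 and Psmb9. They were searched on both strands for GAAANNGAA (a form of the core of interferon response elements), GGGANTNCC (NF-kB type), TGACG (cAMP response type), CCAAT and TTCNNNGAA (STAT type), N being any base. Sequences are written 5′ to 3′ on the strand of the gene, with capitals for the matches. The first run is chr2:122147487-122147686 and the second chr17:34000348-34000547, each ending at the base before the RefSeq start, and the others are stretches of 30 bases around a match at chr17:35262914-35262943 and chr17:35262981-35263010.
B2m: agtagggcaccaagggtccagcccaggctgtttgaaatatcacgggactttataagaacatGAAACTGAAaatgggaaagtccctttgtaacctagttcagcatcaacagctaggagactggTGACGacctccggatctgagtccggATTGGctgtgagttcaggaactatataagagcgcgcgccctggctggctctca
H2-K1: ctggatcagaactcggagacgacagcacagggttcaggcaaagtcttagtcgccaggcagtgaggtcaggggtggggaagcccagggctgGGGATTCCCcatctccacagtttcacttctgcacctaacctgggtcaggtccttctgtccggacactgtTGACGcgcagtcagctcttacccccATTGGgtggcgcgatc
H2-D1, first stretch: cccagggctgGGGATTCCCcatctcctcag
H2-D1, second stretch: ccgggacactgaTGACGcgctggcaggtct

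B2m held GAAANNGAA, which 8.56% of 32851 promoters in the RefSeq table hold, together with CCAAT and TGACG, held by 37.4% and 20.8%. H2-K1 and H2-D1 both held GGGANTNCC, found in 3.95% of promoters, and CCAAT and TGACG as well. Neither held GAAANNGAA, but other forms of interferon response elements were not searched, so that their absence cannot be read from this. GGGANTNCC, CCAAT and TGACG together were found in 0.381% of promoters. From the GGGANTNCC match to the end of the TGACG match, 70 of 74 bases were identical in H2-K1 and H2-D1. Such similarity can make reads hard to place, so it was counted how much of each peak region recurs on chromosome 17. Of the stretches of 50 bases in the main H2-K1 region, 7.10% were found again on the chromosome, and 4.59% in the main H2-D1 region, against 26.0% in the upstream H2-K1 peak of 4xIOP list 3. No such stretch was found again for the regions at Tap1, Psmb8, Psmb9, Tap2 and Tapbp. How reads with several matches were handled is not given in the sources used here, and levels at both heavy chain genes are uncertain to that extent.

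The genes of peptide transport and loading came next. Tapbp (ENSMUSG00000024308.15, chr17:33915899-33929292, plus strand), which encodes tapasin, had the highest median summit enrichment of the 10 genes, 21.0 (range 14.5 to 31.6, 6 lists). Its promoter peak had 47, 49 and 78 fragments in control lists 1 to 3 and 46, 37 and 53 in 4xIOP lists 1 to 3. The groups overlapped, with control list 2 lowest and control list 3 highest in enrichment, and the log2 difference was -0.08 (exact permutation p = 0.9). Its direction turned to 0.17 with scaling to the median summit of shared regions, and to 0.20 without control list 3. The local background at Tapbp was 3.32 to 6.04 times the genome mean, the highest range of the 10 genes. In the flanks of Tapbp, peaks about 4 kb upstream lay at Daxx or Zbtb22 and those about 10 kb downstream at Rgl2, so that these belong to neighbouring genes as much as to Tapbp.

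Tap2 (ENSMUSG00000024339.12, chr17:34203527-34216321, plus strand), which forms the peptide transporter with Tap1, had the highest fold over local background relative to all peaks of a list, at the 88.0th to 99.4th percentile. Its peak was in all 6 lists, with 54, 42 and 58 fragments in control lists 1 to 3 and 26, 46 and 39 in 4xIOP lists 1 to 3. Summit enrichment was 24.6, 12.4 and 23.5 in control and 12.9, 21.7 and 15.2 in 4xIOP. The lowest value was in a control list, and the log2 difference of -0.25 was within the spread (exact permutation p = 0.6). It was 0.0066 with scaling to shared regions, and between -0.57 without control list 2 and -0.08 without control list 1 with single lists left out.

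The Tap2 summits were 1149 to 1227 bp downstream of the GENCODE start, but 197 to 275 bp downstream of the start that RefSeq gives (chromosome 17, position 34204479). They also lay in an intron of the antisense transcript Gm20496, whose start, at 724 to 802 bp, was the nearest in GENCODE, so that the peak cannot be assigned to Tap2 alone. A shorter distance to the RefSeq start was also seen for H2-D1 and Psmb8, at 182 to 283 bp and 180 to 226 bp from the RefSeq starts. At B2m both starts were 1 bp apart, and the summits of the remaining genes were farther from the RefSeq start. The strongest summits lay 175 to 346 bp downstream of the RefSeq start at B2m, 294 to 680 bp at H2-K1, 263 to 577 bp at Tap1 and 329 to 509 bp at Tapbp, and 489 to 803 bp upstream of it at Psmb9.

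Tap1 (ENSMUSG00000037321.17, chr17:34187553-34197225, plus strand) and Psmb9 (ENSMUSG00000096727.3, chr17:34181987-34187764, minus strand) are transcribed away from each other out of a shared promoter, and every peak there counts for both. The strongest one had 20, 30 and 17 fragments in control lists 1 to 3 and 45 in 4xIOP list 3. No peak was called there in 4xIOP lists 1 and 2. Summit enrichment was 9.12, 8.87 and 6.89 in control and 17.5 in 4xIOP list 3, so that the highest and the missing values were all in the 4xIOP group. A further peak on the Psmb9 side of the Tap1 start was called in control lists 1 and 3 and 4xIOP list 3, with 15, 14 and 28 fragments. The promoter length under peaks was 798 ± 331 bp in control and 295 ± 512 bp in 4xIOP (SD, n = 3, exact permutation p = 0.3), and the difference of -502 bp became -798 bp without 4xIOP list 3 and -318 bp without control list 1.

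Psmb8 (ENSMUSG00000024338.15, chr17:34197721-34201454, plus strand), the other inducible proteasome subunit described here, is next to Tap1. It had a weak peak in control lists 1 and 3, with 13 and 15 fragments, and none in control list 2 or in any 4xIOP list. These summits were 4 to 6 fragments above the fewest called at mean background, and with a −log10 q of at least 5 control list 3 alone had a peak. The promoter length under peaks was 418 ± 408 bp in control and 0 bp in all 4xIOP lists (exact permutation p = 0.4). The difference of -418 bp was -220 bp without control list 3, -628 bp without control list 2 and -173 bp at the stricter q.

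**Figure D3:**
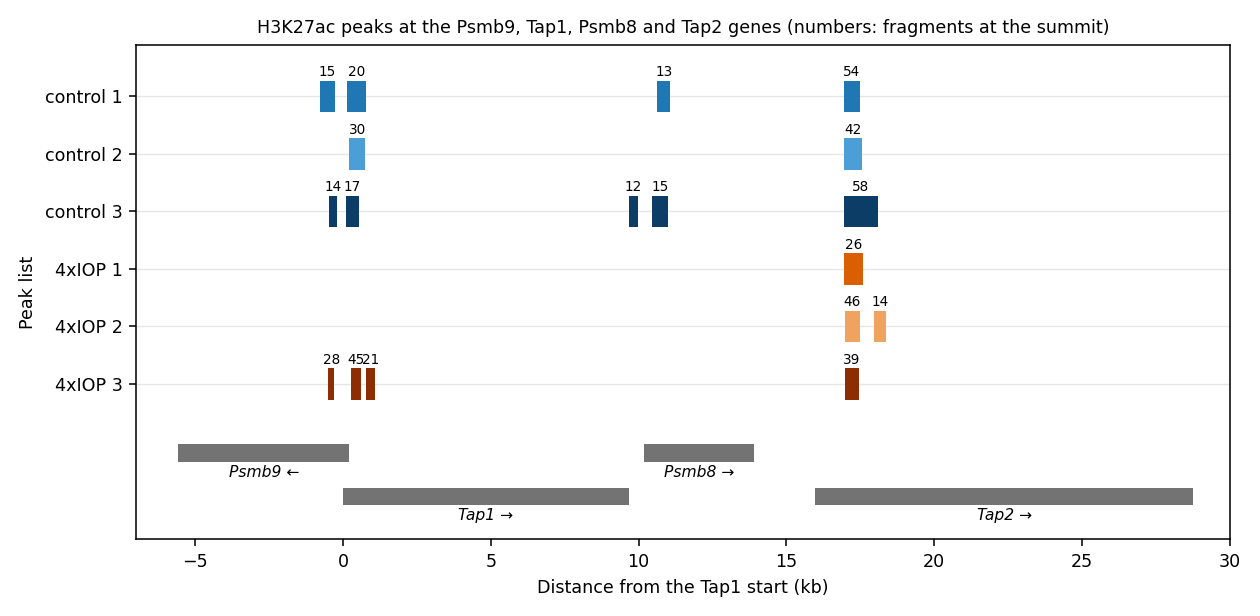
Peaks along the Psmb9, Tap1, Psmb8 and Tap2 genes in each list, as bars at their distance in kb from the Tap1 start, with the number of fragments at the summit above each bar and gene bodies in grey. The peak inside Tap2 is present in all 6 lists with 26 to 58 fragments, whereas 4xIOP lists 1 and 2 have no bar at the shared Tap1 and Psmb9 promoter or at Psmb8.

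The matches at these promoters are shown for comparison with the class I chains. The stretch of 30 bases at Tap1 is chr17:34187458-34187487 and holds TGACG, and that at Psmb8 is chr17:34198088-34198117 and holds TTCNNNGAA, which 8.3% of all promoters hold.
Tap1: cccagagacaggTGACGacagagggtcctg
Psmb8: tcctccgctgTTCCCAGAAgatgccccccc

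Tap1 and Psmb9 held CCAAT and TGACG, as their windows overlap, and Tapbp held CCAAT only. None of these windows held GAAANNGAA or GGGANTNCC. A match or its absence describes these letters in these windows only.

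Nlrc5 (ENSMUSG00000074151.13, chr8:94434356-94527272, plus strand) is the regulator among the 10 genes. A peak 477 to 617 bp upstream of its first start was called in control lists 1 and 2 and in 4xIOP list 3, with 17, 18 and 27 fragments and a summit enrichment of 7.76, 5.32 and 10.5. These are the 3 lists that bear the name of the pressure group, and 7 protein-coding genes in all, or 0.0319%, were marked in exactly these lists. Control list 3, the list with the most peaks, had only an intronic peak of 12 fragments 26140 bp from the nearest Nlrc5 start. The curated RefSeq start of Nlrc5 is 38849 to 38989 bp downstream of these summits (chromosome 8, position 94472763), so that they lie at a promoter of Nlrc5 by GENCODE but not by that start. The promoter length under peaks was 463 ± 421 bp in control and 181 ± 313 bp in 4xIOP (SD, n = 3, exact permutation p = 0.4). With a −log10 q of at least 5, 4xIOP list 3 alone kept a peak and the difference turned from -283 to 181 bp. It was -514 bp without control list 3 and -103 bp without control list 2, and -463 bp without 4xIOP list 3. The start of Nlrc5 overlaps the transcript 9330175E14Rik, and the peaks cannot be assigned to one of them.

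Cd74 (ENSMUSG00000024610.15, chromosome 18) had no peak within its body, its promoters or 5 kb on either side in any of the 6 lists.

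Among promoters with a peak, the genes ranked by median summit enrichment in the order Tapbp (21.0), Tap2 (18.4), H2-D1 (15.8), H2-K1 (12.3), Tap1 and Psmb9 (9.0), Nlrc5 (7.76), B2m (6.13) and Psmb8 (6.0). Each median is over the lists with a peak (6 for the first 3 genes, 5 for H2-K1 and B2m, 4 for Tap1 and Psmb9, 3 for Nlrc5 and 2 for Psmb8). Lists below threshold are therefore missing from the weaker genes, whose medians are not over the same lists. The SD over lists was 5.83 for Tapbp, 5.5 for Tap2 and 2.42 for H2-D1, so that these neighbours did not differ beyond their spread. The ranges of all neighbours in this order overlapped when pooled over lists. Within each of the 5 lists with both peaks, however, H2-D1 was above H2-K1. The values were 18.7 and 12.3, 16.0 and 12.7, and 19.8 and 14.2 in control lists 1 to 3, and 14.1 and 8.95, and 15.6 and 10.5 in 4xIOP lists 2 and 3. Tap1 was likewise above Nlrc5 in control lists 1 and 2 and 4xIOP list 3 (9.12 and 7.76, 8.87 and 5.32, 17.5 and 10.5). The ranges of H2-K1 (8.95 to 14.2) and B2m (4.73 to 7.76) did not overlap. For comparison, the median summit enrichment over the 8654 genes marked in all 6 lists ranged from 10.9 in control list 2 to 28.8 in control list 3.

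No promoter of the 10 had more length under peaks in every control list than in every 4xIOP list, and none the reverse, against 6.22% and 0.0319% of all protein-coding genes. Across regions called in all 6 lists, the rank of fold within each list was tested with limma, which gave 0 of 10529 regions (0%) with an adjusted p under 0.05 and 333 with an unadjusted p under 0.05. Of the 19 regions at the 10 genes, 5 were called in all 6 lists (26.3%, against 26.4% of all 39950 regions), at H2-D1, Tap2 and Tapbp. At the Tapbp promoter the rank score was higher in 4xIOP by 0.72 ± 0.31 (SE, limma adjusted p = 0.9999), and by 0.35 ± 0.35 with summit fragments ranked in place of fold. It was 0.14 ± 0.30 at H2-D1 and -0.11 ± 0.38 at Tap2, with the same adjusted p in limma. Neither direction of these latter genes was stable, since the score difference at H2-D1 was -0.06 by summit fragments, and that at Tap2 lay between -0.53 without 4xIOP list 2 and 0.21 without 4xIOP list 1.

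The length of the 10 loci under peaks, with 5 kb on either side, was 7208, 5766 and 8882 bp in control lists 1 to 3 and 3426, 5219 and 5646 bp in 4xIOP lists 1 to 3, of a window of 233950 bp. The means were 7285 ± 1559 and 4764 ± 1178 bp (SD, n = 3). As the lists differ in how much was called (6.66 to 20.1 Mb), the length was also divided by that of the whole list. It was then 666, 646 and 442 bp per Mb in control and 337, 504 and 847 bp per Mb in 4xIOP, with means of 584 ± 124 and 563 ± 260. 4xIOP list 3 was highest and 4xIOP list 1 lowest on this scale, with the controls in between.

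**Figure D4:**
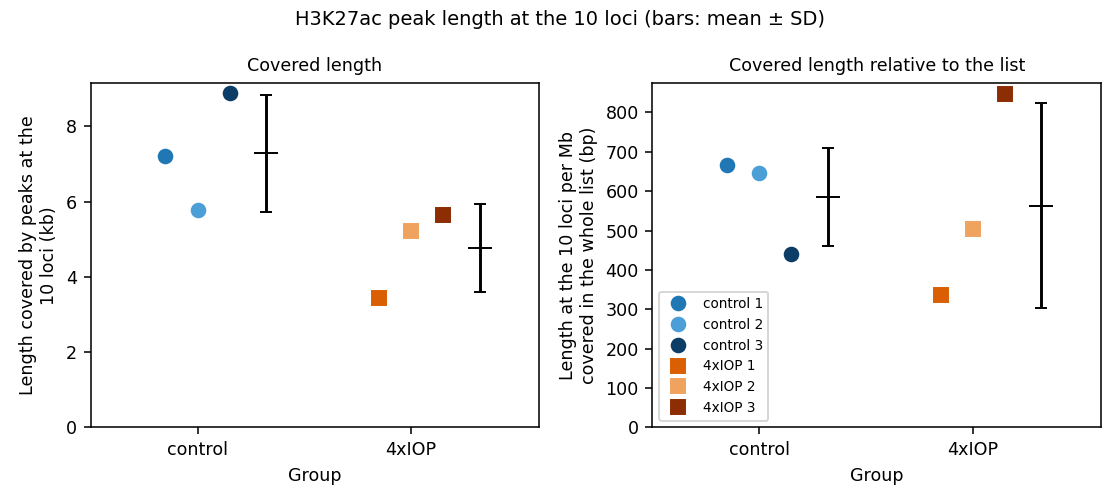
Length covered by peaks at the 10 loci in kb (left) and the same length in bp per Mb covered in the whole list (right), with 1 point per list and the mean ± SD of each group beside the points. Control lists are above 4xIOP lists on the left, and lie between 337 and 847 bp per Mb, the lowest and highest 4xIOP lists, on the right.

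The fewest of the 10 promoters were marked in 4xIOP lists 1 and 2. These lists had the lowest mean backgrounds, 87.4 and 91.5 fragments per 10000 bp, and their shortest peaks were 230 and 232 bp. Control list 1 (99.6 fragments and 220 bp) was like them in both, and the other 3 lists had shortest peaks of 187 to 195 bp. Among the lists with shortest peaks above 200 bp, 9 of the 10 promoters were marked in control list 1 and 3 and 5 in 4xIOP lists 1 and 2. The shares of all protein-coding genes in these lists were 48.6%, 47.4% and 45.6%. Among the lists below 200 bp, 8 of the 10 were marked in control lists 2 and 3 each and 8 in 4xIOP list 3. There the shares of all protein-coding genes were 46.2%, 56.9% and 44.6%. Each of these 2 sets of lists has 1 list of one group, and the difference between the sets was not tested. With this length class as a term, limma called 0 of the 10529 shared regions, with 389 at an unadjusted p under 0.05. The part of depth or peak length in the number of marked promoters was not tested.

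Lists of further genes were then counted beside the 10. Of 22 other genes of class I presentation and peptide supply, the control lists had 14 marked each, and 4xIOP lists 1 to 3 had 12, 12 and 13. The mean shares were 63.6% in control and 56.1% in 4xIOP, against 50.6% and 45.9% of all protein-coding genes. In all 6 lists 12 were marked (54.5%, against 39.5% of all protein-coding genes), and in none 8 (36.4%, against 42.4%). The 12 included the immunoproteasome subunit Psmb10, the activator subunits Psme1 and Psme2, the peptide trimming enzyme Erap1 and the nonclassical H2-T23. The number of marked lists differed between groups at 2 of the 22 (9.09%), both nonclassical class I genes marked in more control lists, where the share over all genes was 13.3%. H2-Q7 was marked in the 3 control lists with 17, 28 and 16 fragments and in no 4xIOP list. H2-Q4 was marked in the 3 control lists with 18, 29 and 23 fragments and in 4xIOP list 3 with 21. Both belong to a family of near-identical copies, so their levels are uncertain. Over the 12 genes marked in all lists, the median log2 difference in summit enrichment was -0.21, against -0.27 over all genes. Without control list 3, both turned to 0.08.

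Class II genes were marked in 2 of 11 cases in every list, H2-DMa and Lgmn. Neither the class II chains H2-Aa, H2-Ab1 and H2-Eb1 nor their transactivator Ciita had a promoter peak in any list. Of 21 regulators, all were marked in the control lists and 4xIOP list 3, whereas 4xIOP lists 1 and 2 had 18 and 19. Thus 3 of 21 (14.3%) were marked in more control lists, near the 13.3% of all protein-coding genes. In all 6 lists 18 were marked, which included Irf2, Irf9, Rfx5 and the interferon receptor genes. Irf1, an interferon-induced activator of class I genes, had 20, 26 and 17 fragments in control lists 1 to 3 and 36 in 4xIOP list 3. Irf8, a factor of myeloid cells, had 39, 38 and 19 fragments in the controls and 32 in 4xIOP list 3. Neither had a peak in 4xIOP lists 1 and 2. Rfxank, a subunit of the factor that binds class I and class II promoters, lacked a peak in 4xIOP list 1 only.

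Genes with the same set of marked lists as the members were counted. Irf1, Irf8 and H2-Q4 shared the set of Tap1 and Psmb9, as did 78 protein-coding genes in all (0.356%, Tap1 and Psmb9 included). Rfxank shared that of B2m and H2-K1, with 127 genes in all (0.580%). Creb1, which binds TGACG elements, was marked in all lists, and its summit enrichment was 27.8, 24.3 and 49.4 in control and 23.4, 20.3 and 19.1 in 4xIOP (log2 difference -0.63, or -0.32 without control list 3). It is named because its groups did not overlap, so no test is given, and it was the only such gene of the 18 regulators marked in all lists, against 1.01% of all genes.

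**Figure D5:**
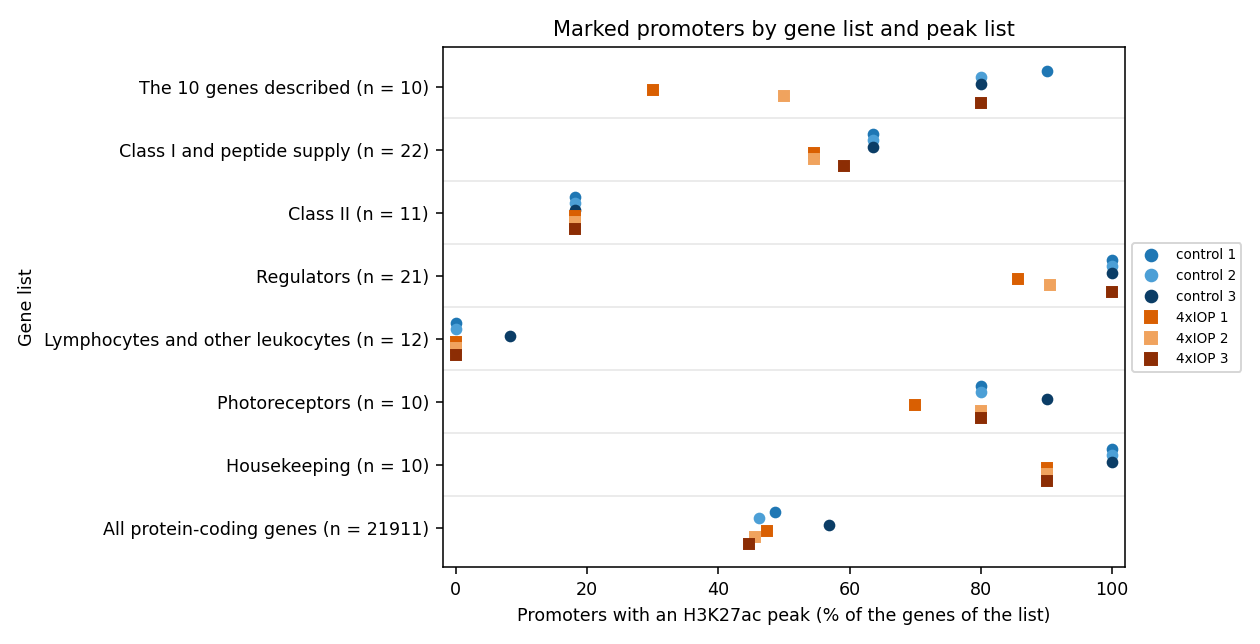
Share of promoters with an H3K27ac peak in each gene list, in % of the genes of the list, with 1 point per peak list (circles, control; squares, 4xIOP). The 10 genes spread from 3 to 9 marked promoters, and regulators and class I genes are lower in 4xIOP lists 1 and 2, while class II genes stay at 2 of 11 in every list.

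Markers of other cell types were counted beside these genes. The microglia and macrophage markers Cx3cr1, P2ry12, Tmem119, Aif1 and Csf1r had no promoter peak in any of the 6 lists. Of 12 leukocyte markers 0 were marked in 5 lists and 1 in control list 3 (Cd79b). Endothelial markers were marked in 2, 0 and 1 of 10 cases in control lists 1 to 3 and in 0 in each 4xIOP list, and Müller glia markers in 1, 3 and 4 of 8 and in 3, 3 and 1. Photoreceptor markers, which define the tissue, were marked in 8, 8 and 9 of 10 cases in control and 7, 8 and 8 in 4xIOP. Of 10 housekeeping genes, 10 were marked in each control list and 9 in each 4xIOP list, where Pgk1, an enzyme of glycolysis, was without a peak. The named defining markers of microglia were thus without a peak in every list, and the part of other cell types in the result was not tested.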

How the data were processed

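The 6 samples were assigned to control and 4xIOP from their labels. The deposited lists are in narrowPeak layout. For each peak the authors gave a fold (the ratio of fragments at the summit to local background, with 1 added to each) and −log10 p and −log10 q values. The labels name STAR 2.7.8a, MACS2, HOMER, edgeR and bedtools 2.29.2 and the build mm10, without roles or thresholds. The lists state no depth. Summit fragments and local background were recovered from fold and −log10 p under a Poisson model, which returned the deposited p within 0.001 for 100% of peaks, and the lowest recovered background served as the genome mean. Genes were those of GENCODE vM21 basic on GRCm38 (41481 start sites of 21911 genes). Regions were overlapping peaks of the 6 lists, joined. Single values were compared with two-sided exact permutation tests, which cannot give a p under 0.1 here. Regions found in all lists were tested with limma 3.58.1 in R 4.3.3 on normal scores of the rank of fold, with Benjamini-Hochberg adjustment at 0.05. Promoter sequences are from RefSeq. The 10 genes, the gene lists and the motifs were chosen with earlier results of these data known. Named genes were the 10, and those of the antigen presentation lists marked in all 3 lists of a group and at most 1 of the other, not overlapping between groups in summit enrichment, or sharing the marked lists of one of the 10. Of the other genes, those named as examples were chosen after their values were seen. Some list genes are not reported here by name. Ifi30 was not found in the annotation, which left 11 class II genes. Alternatives were other peak thresholds, windows and scalings, and leaving out each list.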

Additional observations from a re-analysis of the deposited data

How the results depend on the processing

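The difference in marked promoters among the 10 genes (-3.00, 4xIOP minus control) and that in locus length under peaks (-2522 bp) are descriptions with no test. They lay between -4.33 and -1.83 promoters and between -3281 and -1723 bp with each list left out in turn. The former was -1.83 without 4xIOP list 1 and -4.33 without 4xIOP list 3. With only the 2 lists whose own name is that of their label (control list 3 and 4xIOP list 3), the difference in marked promoters was 0. Read by the names on all 6 lists, the lists carrying the pressure name had 9, 8 and 8 marked promoters, and those carrying the control name 8, 3 and 5, which is the reverse direction. The locus length was 7208, 5766 and 5646 bp in the former and 8882, 3426 and 5219 bp in the latter, which overlap, and its difference with the 2 lists alone was -3236 bp. Divided by the length of the whole list and brought back to bp, that in locus length was -243 bp. It was -1601 bp with equal numbers of top peaks, one of the other 21 alternatives, which for both descriptions kept their direction and moved by less than the spread between lists. Alternatives for single genes in promoter length, the shared promoter counted once (-2.33 promoters), the scaled levels of H2-K1 and the medians over gene lists were chosen after the data were examined. Without control list 3 the median log2 difference turned to 0.0817 over all genes (lowest -0.59 without control list 2) and to 0.0784 over the class I list (lowest -0.51 without control list 2). Directions that turned were those of summit enrichment (log2) at Tap2, 0.0066 scaled to shared regions, and at Tapbp, 0.17 on the same scale, 13.9 percentile points by fold percentile, 0.20 without control list 3 and 0.02 without 4xIOP list 2, with a range of -0.37 to 0.20 over lists left out. In promoter length, those of B2m without 4xIOP list 1 (15.0 bp, range -192 to 15.0), of Tap2 and Tapbp without control list 3 (100.5 bp, range -202 to 100.5, and 28.8 bp, range -165 to 28.8) and of Nlrc5 with a −log10 q of at least 5 (181 bp) turned, and the causes were not tested. The other 93 kept their direction, and no exact test could pass 0.05.

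Same-numbered lists did not deviate together (correlations of -0.02, -0.06 and -0.15 over shared regions), so the replicate numbers were not used as pairs. With the replicate block, limma called 0 regions, and the exact sign-flip permutation p was 0.25 for H2-D1, 0.75 for Tap2 and 1 for Tapbp, where 0.25 is the smallest possible. Ranked by summit fragments, the limma score difference turned to -0.06 at H2-D1 and 0.03 at Tap2, and at Tap2 it was also 0.11 without control list 1 and 0.21 without 4xIOP list 1. limma called 0 regions under every alternative run, with 251 to 701 at an unadjusted p under 0.05. The paper gives a depth that was aimed at for every ChIP-seq sample, but the depth reached in each list is unknown beyond the recovered backgrounds. A promoter just under a list's threshold cannot be told from one without the mark.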
